A study of Mus musculus with 6 samples.

Results

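The interleukin-1 (IL-1) family genes examined here were *Il1a*, *Il1b* and *Il18*, which encode cytokines, *Il1rn* and *Il18bp*, which encode secreted antagonists, *Il1r2*, which encodes a decoy receptor, and *Il1r1* and *Il1rap*, which encode the signaling receptor and its co-receptor. They were found by gene symbol, and all 8 were present among the 55453 genes of the count table and among the 13680 genes that passed the filter on low counts. RNA-Seq was available for 6 libraries of bone marrow-derived macrophages (BMDM), 3 from PP2Ac KO mice and 3 from WT mice, all on the C57BL/6 strain. The study describes the PP2Ac KO animals as *LysM*cre *PP2Ac* fl/fl mice, in which *cre* driven by the Lysozyme 2 promoter removes exon 1 of *Ppp2ca*, the gene of the PP2A catalytic subunit α, in the myeloid lineage, and the controls as WT C57BL/6 mice bought from a vendor, so that they were not described as littermates or as carriers of *cre*. Mice of both sexes aged between 6 and 10 weeks were used in the study, and marrow cells were grown with M-CSF or with medium conditioned by L929 fibroblasts until day 7. Which of these media was used for these libraries, and whether the 3 libraries of a group came from different mice, was not given in the sources used here. The study describes its RNA-Seq on BMDM given 10 μg/mL cGAMP, a ligand of STING, for 4 hours. The labels of the samples name no treatment, so cGAMP is taken from the study, and there was no untreated group.

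IL-1α and IL-1β bind the receptor encoded by *Il1r1*, which recruits the co-receptor encoded by *Il1rap* and signals through MyD88 and NF-κB. IL-1β and IL-18 are made as inactive precursors that caspase-1 cleaves inside inflammasomes, so that transcript levels do not measure active cytokine. The system is held in check at the receptor by IL-1Ra, the product of *Il1rn*, which occupies the receptor without signaling, by the decoy receptor from *Il1r2*, and in solution by the IL-18 binding protein from *Il18bp*. Macrophages are a main source of IL-1β, and the genes of the cytokine and of its antagonist are both known to be induced by Toll-like receptor and NF-κB signals.

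Between 35257156 and 47390899 reads per library were counted on genes, and levels are given as CPM, counts scaled to the library size with TMM factors. A floor of 3 counts, which covers counting error only, came to 0.0604 to 0.0909 CPM. *Ppp2ca* had 33 to 47 reads in the PP2Ac KO libraries and 8279 to 10654 in the WT libraries, as the labels imply. The 8 macrophage markers *Adgre1*, *Cd68*, *Csf1r*, *Itgam*, *Fcgr1*, *Mertk*, *Lyz2* and *C1qa* summed to 7893 to 8066 CPM in PP2Ac KO and 6551 to 7249 CPM in WT. Of these markers 3, or 37.5%, were called higher, where 18.1% of all genes tested were. *Lyz2*, the gene whose promoter drives *cre* here, was the lowest of the 8 markers. It had 7.88 to 10.1 CPM in PP2Ac KO and 6.58 to 8.33 CPM in WT. The neutrophil markers *Ly6g* and *Retnlg*, the mast cell marker *Tpsb2* and the T cell marker *Cd8a* were at 0 counts in every library, and the summed neutrophil list of 10 genes reached at most 3.08 CPM. The summed lists for mast cells and basophils, dendritic cells, and T, NK and B cells reached at most 2.55, 2.66 and 1.46 CPM. Of these lists, *Clec9a* of dendritic cells was the 1 gene called, higher in PP2Ac KO. In bulk RNA, fewer cells of a type cannot be told apart from less RNA per cell.

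At a false discovery rate (FDR) under 0.05 in the quasi-likelihood test of edgeR, 5 of the 8 genes rose in PP2Ac KO BMDM, *Il1b*, *Il1rn*, *Il18bp*, *Il18* and *Il1rap*. Of all genes tested, 18.1% were higher and 19.0% lower by the same rule, 37.1% in either direction. *Il1r1* fell, and *Il1a* and *Il1r2* did not pass the test. The 6 called genes were also those whose 3 PP2Ac KO libraries did not overlap the 3 WT libraries, where 24.0% of all genes tested lay wholly above and 26.8% wholly below the WT libraries. At the stricter thresholds of the study's legend (absolute log2 change over 1, FDR under 0.01), *Il1b*, *Il1rn* and *Il18bp* were called higher and none of the 8 lower, where 3.36% of all genes were higher and 2.99% lower. The median log2 fold change was 0.74 over the 8 genes and -0.02 over all genes tested. Upper-quartile scaling shifted the split of calls over all genes, so that 38.4% of them were higher against 48.7% with TMM scaling, and it left the same number of the 8 genes higher.

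**Figure D1:**
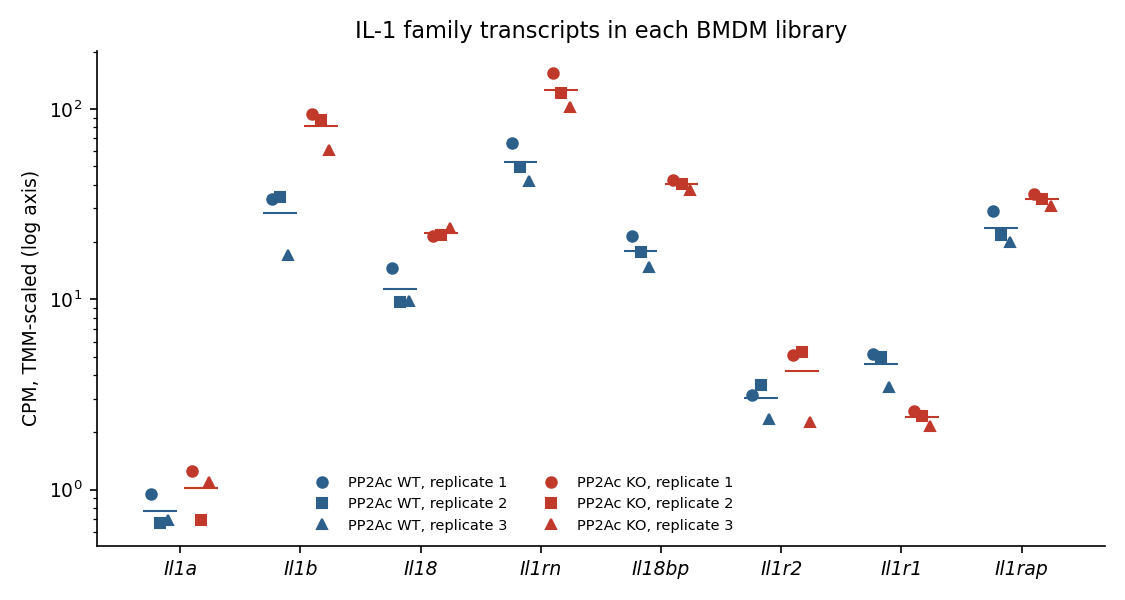
Level of each IL-1 family gene in each library, as TMM-scaled CPM on a log axis, with WT in blue, PP2Ac KO in red, a marker shape for each replicate number and a line at the group mean. The 3 PP2Ac KO points lie above the 3 WT points for *Il1b*, *Il18*, *Il1rn*, *Il18bp* and *Il1rap* and below them for *Il1r1*.

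*Il1b* had the largest increase of the 8. It was counted 3974, 2899 and 2553 times in PP2Ac KO libraries 1, 2 and 3 and 1681, 1491 and 713 times in WT libraries 1, 2 and 3. Scaled for library size these were 93.7, 87.8 and 61.2 CPM against 33.8, 34.3 and 17.0 CPM. The third library was the lowest of its genotype in both groups, and the lowest PP2Ac KO library lay above the highest WT library. The mean rose from 28.4 ± 9.85 to 80.9 ± 17.3 CPM (SD, n = 3), which is a log2 change of 1.51 ± 0.25 (SE, edgeR adjusted p = 0.00149). *Il1b* lies on the reverse strand of chromosome 2 from 129364570 to 129371139 in GRCm38 (mm10). The antisense gene *Il1bos*, which shares 25 exonic bases with it, had at most 5 reads in a library.

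The promoter of *Il1b* is shown because it belongs to the member that rose most. It is given 5′ to 3′ on the reverse strand of chr2:129371090-129371389 in RefSeq's GRCm38.p6, from 250 bases before the start of transcription to 50 bases after it. Capitals mark a C/EBP core (TTNNGNAA) that begins 91 bases before the start and a TATA box (TATAAA) that begins 31 bases before it. Both motifs were searched on both strands.
Il1b promoter: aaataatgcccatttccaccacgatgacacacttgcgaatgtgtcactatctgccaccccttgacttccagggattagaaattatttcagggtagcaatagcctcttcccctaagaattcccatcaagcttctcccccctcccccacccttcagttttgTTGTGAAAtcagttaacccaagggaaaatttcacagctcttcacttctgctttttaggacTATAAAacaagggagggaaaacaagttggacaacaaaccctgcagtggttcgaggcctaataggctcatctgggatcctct
Of 32851 RefSeq promoter windows of this length, 13.6% held TATAAA and 40.7% held TTNNGNAA, so the C/EBP core is a common match. Among the 11 windows of the 8 genes, TATAAA was found in 4 and TTNNGNAA in 7. The 7 include overlapping windows of *Il1rn* that hold the same C/EBP cores. The TATAAA match began 32 bases before the start in *Il1a* and 31 in *Il1b*, but 175 in *Il18* and after the start in *Il1rn*.

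*Il1a*, the gene of the cytokine that shares the receptor with IL-1β and is active without cleavage by caspase-1, was near the bottom of the range. It had 53, 23 and 46 reads in PP2Ac KO libraries 1 to 3 and 47, 29 and 29 reads in the WT libraries. In CPM these were 1.25, 0.697 and 1.10 against 0.946, 0.667 and 0.692, so that the groups overlapped. The log2 fold change of 0.41 had a 95% interval from -0.19 to 1.01 (adjusted p = 0.258 from edgeR), and a doubling of *Il1a* lies within it. *Il1a* is the neighbor of *Il1b*, from 129299610 to 129309972 on the same strand. *Gm14023*, on the opposite strand, shares 222 exonic bases with *Il1a* and had 7 to 32 reads in a library. Its log2 fold change was -0.79 and did not pass the test (adjusted p = 0.104 from edgeR). The part of *Gm14023* in the count of *Il1a* was not tested.

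The 3′ untranslated regions of both cytokine genes hold ATTTA pentamers, the core of AU-rich elements that proteins such as ZFP36 (tristetraprolin) bind in short-lived mRNAs. The stretch of 30 bases with the most pentamers is shown for each from the GENCODE M21 transcripts, with the pentamers in capitals, because the genes of proteins that bind them are counted further on.
Il1b-201 AU-rich stretch: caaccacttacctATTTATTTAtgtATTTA
Il1a-201 AU-rich stretch: attttatctatgtATTTAtaaatatATTTA
The stretch in *Il1b* begins at base 192 of an untranslated region of 459 bases that holds 4 pentamers in all, or 8.71 per kilobase. *Il1a* had 3 pentamers in 1101 bases, or 2.72 per kilobase, and *Il1rn* had 0 in 1864 bases. The median over 11979 tested genes with such a region was 1.31 per kilobase, and 70.2% had at least 1 pentamer. The longer sequence TTATTTATT was also searched. It was found 0 times in each of the 8 genes, where 8.15% of the tested genes held it. Both *Il1b* and *Il1rn* rose.

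*Il18* encodes the other cytokine that caspase-1 activates. PP2Ac KO libraries 1 to 3 gave 918, 723 and 993 reads and WT libraries 1 to 3 gave 725, 421 and 412, or 21.6, 21.9 and 23.8 CPM against 14.6, 9.68 and 9.83 CPM. The PP2Ac KO libraries lay close together and above all WT libraries, of which the first stood highest. The mean rose from 11.4 ± 2.80 to 22.4 ± 1.18 CPM (SD, n = 3), which is a log2 change of 0.98 ± 0.15 (SE, edgeR adjusted p = 8.81e-04), just under the fold threshold of the study. *Il18* lies on chromosome 9 from 50554827 to 50581840. *Bco2*, which overlaps it on the opposite strand and shares 0 exonic bases with it, had 140 to 339 reads per library and also rose by a log2 fold change of 0.98 (adjusted p = 3.04e-04 from edgeR). The library kit keeps strand, but the strand setting of the counting was not given in the sources used here, and the part of *Bco2* in the count of *Il18* was not tested.

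*Il1rn* was the most counted of the 8 genes. It had 6514, 3982 and 4306 reads in PP2Ac KO libraries 1 to 3 and 3294, 2161 and 1749 reads in the WT libraries. In CPM these were 154, 121 and 103 against 66.3, 49.7 and 41.7. The first library was the highest and the third the lowest in both genotypes, and the groups did not overlap. The change was 1.26 ± 0.18 on the log2 scale (SE, edgeR adjusted p = 7.36e-04), a 2.39-fold increase. *Il1rn* spans the forward strand of chromosome 2 from 24336853 to 24351494 and has several annotated starts, and the gene count does not separate its secreted and intracellular forms. Of its 3 RefSeq promoter windows, the one on the forward strand of chr2:24345121-24345420 is shown as that of the antagonist. Capitals mark C/EBP cores 161, 65 and 64 bases before the start, of which the last 2 overlap. They also mark a match to TATAAA on the opposite strand, which lies inside the transcript from base 15. The window on chr2:24336610-24336909 held none of the motifs searched. The window on chr2:24345041-24345340 overlaps the one shown and holds the same C/EBP cores.
Il1rn promoter: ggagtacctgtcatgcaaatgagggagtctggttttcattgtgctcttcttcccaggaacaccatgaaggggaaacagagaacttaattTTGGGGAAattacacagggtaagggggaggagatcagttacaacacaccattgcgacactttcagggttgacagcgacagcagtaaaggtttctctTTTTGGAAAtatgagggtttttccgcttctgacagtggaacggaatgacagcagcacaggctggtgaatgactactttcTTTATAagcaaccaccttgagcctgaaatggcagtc

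*Il18bp* rose with the least spread relative to its change. Reads numbered 1798, 1338 and 1568 in PP2Ac KO and 1066, 769 and 617 in WT, which is 42.4, 40.5 and 37.6 CPM against 21.5, 17.7 and 14.7 CPM. Each PP2Ac KO library was above every WT library. The mean went from 18.0 ± 3.38 to 40.2 ± 2.42 CPM (SD, n = 3), which is a log2 change of 1.16 ± 0.12 (SE, edgeR adjusted p = 1.74e-04). *Il18bp* lies on the reverse strand of chromosome 7 from 102014885 to 102018690. *Numa1*, on the opposite strand, shares 80 exonic bases with it, had 8203 to 15626 reads in a library and did not pass the test (log2 change -0.15, edgeR adjusted p = 0.17).

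**Figure D2:**
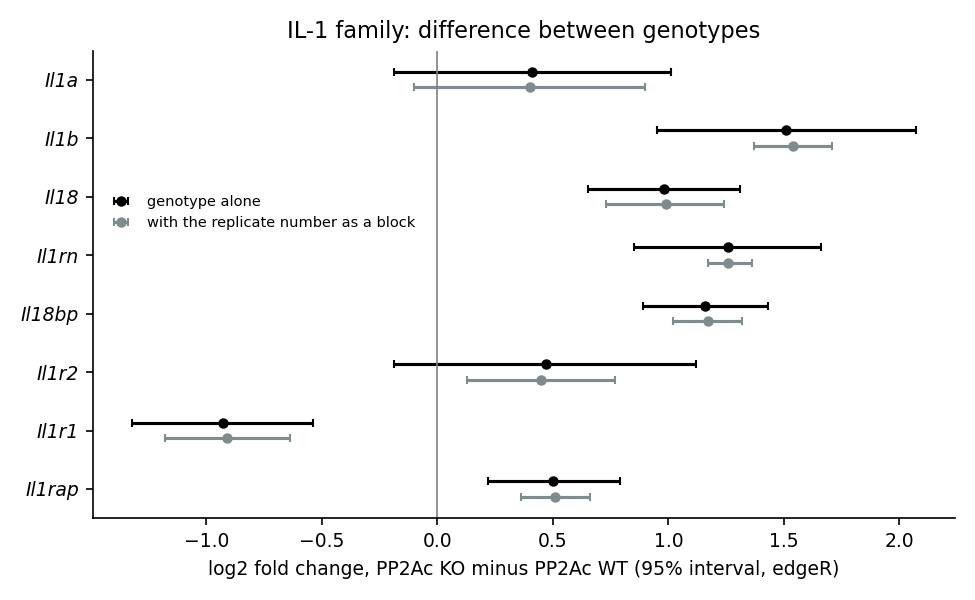
Log2 fold change of each IL-1 family gene, PP2Ac KO minus WT, with 95% intervals from edgeR for genotype alone (black) and for the blocked fit, in which the replicate number is a term (gray). The intervals of *Il1a* include 0 in both fits, and that of *Il1r2* does so in the fit on genotype alone.

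Among the receptors, *Il1r1* moved against the cytokines. PP2Ac KO libraries 1 to 3 held 110, 81 and 90 of its reads and WT libraries 1 to 3 held 258, 217 and 146, or 2.59, 2.45 and 2.16 CPM against 5.19, 4.99 and 3.48 CPM. The third library was the lowest in both genotypes, and all PP2Ac KO libraries were below all WT libraries. *Il1r1* fell by 0.93 on the log2 scale (SE 0.17, edgeR adjusted p = 0.00285), from 4.56 ± 0.934 to 2.40 ± 0.223 CPM (SD, n = 3). The gene spans chromosome 1, forward strand, from 40225080 to 40317257. Its upstream RefSeq promoter, on chr1:40224830-40225129, is shown as that of the member that fell. C/EBP cores begin 154 and 133 bases before the start, and none of the other motifs searched was found in this window. A second RefSeq window of *Il1r1*, on chr1:40266336-40266635, held the NF-κB motif 232 bases before its start, the 1 match to that motif among the 11 windows, where 4.51% of all windows held it.
Il1r1 promoter: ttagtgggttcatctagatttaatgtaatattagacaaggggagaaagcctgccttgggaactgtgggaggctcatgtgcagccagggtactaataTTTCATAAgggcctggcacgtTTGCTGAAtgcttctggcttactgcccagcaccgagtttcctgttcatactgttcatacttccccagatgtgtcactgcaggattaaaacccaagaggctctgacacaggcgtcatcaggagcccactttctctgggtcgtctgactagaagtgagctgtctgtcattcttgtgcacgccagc

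Fibroblasts express *Il1r1* strongly, and markers of these cells moved in the same direction. The summed level of the 6 fibroblast markers *Col1a1*, *Col1a2*, *Col3a1*, *Dcn*, *Lum* and *Pdgfra* was 35.0, 28.6 and 23.3 CPM in PP2Ac KO libraries 1 to 3 and 111, 121 and 76.6 CPM in WT libraries 1 to 3. All 5 of the markers that could be tested fell, where 19.0% of all genes tested were lower. Their median log2 change was -1.95, and *Lum* had at most 6 reads in a library. In both genotypes the library with the lowest sum, replicate 3, was also the one with the lowest *Il1r1*. That library was likewise the lowest of its genotype for *Il1b*, *Il1rn*, *Il18bp* and *Il1rap*, which rose. The highest sum and the highest *Il1r1* were both in library 1 in PP2Ac KO, but in libraries 2 and 1 in WT. The part of these cells in the fall of *Il1r1* was not tested. No marker of fibroblasts was at 0 in every library.

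**Figure D3:**
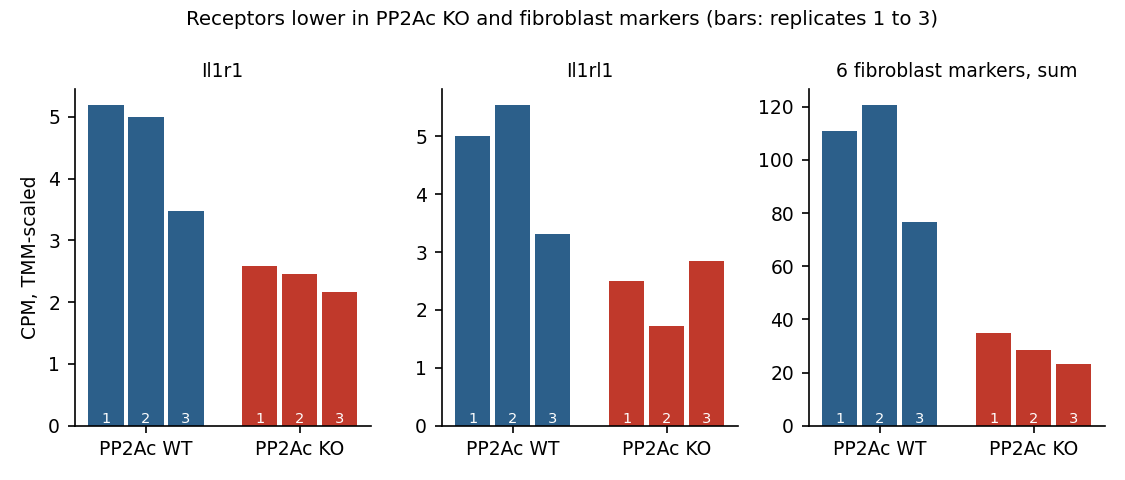
Bars show TMM-scaled CPM in replicates 1 to 3 of each genotype for *Il1r1*, *Il1rl1* and the sum of 6 fibroblast markers, on axes that start at 0. All 3 PP2Ac KO bars are shorter than all 3 WT bars in each panel, and WT replicate 3 has the shortest WT bar in each. PP2Ac KO replicate 3 has the shortest PP2Ac KO bar for *Il1r1* and the fibroblast markers but the longest for *Il1rl1*.

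*Il1rap*, whose product is shared by the receptors for IL-1, IL-33 and IL-36, had 1510, 1115 and 1298 reads in PP2Ac KO and 1440, 946 and 840 in WT. In CPM these were 35.6, 33.8 and 31.1 against 29.0, 21.8 and 20.0, and the groups were separate by a small gap. The change was 0.50 ± 0.13 on the log2 scale (SE, edgeR adjusted p = 0.0125). The call was lost without WT replicate 2 (log2 fold change 0.45, adjusted p = 0.0523 from edgeR). *Il1rap* spans the forward strand of chromosome 16 from 26581704 to 26730117. Its promoter on chr16:26581455-26581754 is shown because it was the only window of the 8 genes with the core of an interferon-stimulated response element (ISRE), in capitals, which begins at base 21 of the transcript.
Il1rap promoter: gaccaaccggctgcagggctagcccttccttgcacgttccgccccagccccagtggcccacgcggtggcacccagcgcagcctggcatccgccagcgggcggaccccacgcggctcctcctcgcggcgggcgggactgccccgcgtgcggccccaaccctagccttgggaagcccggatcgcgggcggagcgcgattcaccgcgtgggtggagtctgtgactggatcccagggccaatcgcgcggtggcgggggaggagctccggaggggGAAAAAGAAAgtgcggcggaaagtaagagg
Of all 32851 windows, 3.44% held this core on either strand. No other motif searched was found in the window.

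The decoy receptor gene *Il1r2* had 215, 175 and 95 reads in PP2Ac KO libraries 1 to 3 and 157, 155 and 99 in the WT libraries. In CPM these were 5.07, 5.30 and 2.28 against 3.16, 3.56 and 2.36. PP2Ac KO replicate 3 lay below all WT libraries, and the other PP2Ac KO libraries lay above them. The log2 fold change of 0.47 had a 95% interval from -0.19 to 1.12 (adjusted p = 0.244 from edgeR). With the replicate number as a block it was 0.45 and passed the test (adjusted p = 0.0229 from edgeR), where 24.4% of all genes were higher. Without PP2Ac KO replicate 3 the log2 fold change was 0.78 (adjusted p = 0.0118 from edgeR), and without the filter on low counts the adjusted p was 0.0471. *Il1r2* lies directly upstream of *Il1r1* on chromosome 1, from 40074079 to 40125231.

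The balance of antagonist and agonist was taken within each library as a ratio of read counts, which library scaling does not touch. The ratios are not corrected for exon length, so they compare libraries and do not show which gene had more transcript. Per kilobase of annotated exons, the means of *Il1b* and *Il18* were above those of *Il1rn* and *Il18bp* in both genotypes. The mean of *Il1r2* was likewise above that of *Il1r1* in both. *Il1rn* over the sum of *Il1a* and *Il1b* was 1.62, 1.36 and 1.66 in PP2Ac KO libraries 1 to 3 and 1.91, 1.42 and 2.36 in WT libraries 1 to 3. The groups overlapped, and the mean log2 ratio was 0.62 ± 0.15 in PP2Ac KO and 0.89 ± 0.37 in WT (SD, n = 3), a difference of -0.27 (2-sided exact permutation p = 0.3). *Il18bp* over *Il18* was 1.96, 1.85 and 1.58 in PP2Ac KO and 1.47, 1.83 and 1.5 in WT, a difference in mean log2 ratio of 0.17 (2-sided exact permutation p = 0.2). Within same-numbered pairs 1, 2 and 3, PP2Ac KO minus WT, the log2 ratio differed by -0.24, -0.06 and -0.51 for *Il1rn* and by 0.41, 0.02 and 0.08 for *Il18bp*. All 3 pairs thus had the same sign for each ratio, with a 2-sided exact sign-flip permutation p of 0.25, the smallest that 3 pairs can give. With 3 libraries per group neither test can reach 0.05, paired or unpaired, and these p-values do not show that the ratios were alike. *Il1r2* over *Il1r1* did separate the groups, with ratios of 1.95, 2.16 and 1.06 in PP2Ac KO and 0.609, 0.714 and 0.678 in WT. The difference in mean log2 ratio was 1.31 (2-sided exact permutation p = 0.1), and 0.1 is the smallest p that 3 libraries against 3 can give. In the fit on genotype alone, *Il1r1* was called lower with a log2 fold change of -0.93, and *Il1r2*, with 0.47, was not called. The 3 ratios were each tested once and no p reached 0.05 before any adjustment.

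**Figure D4:**
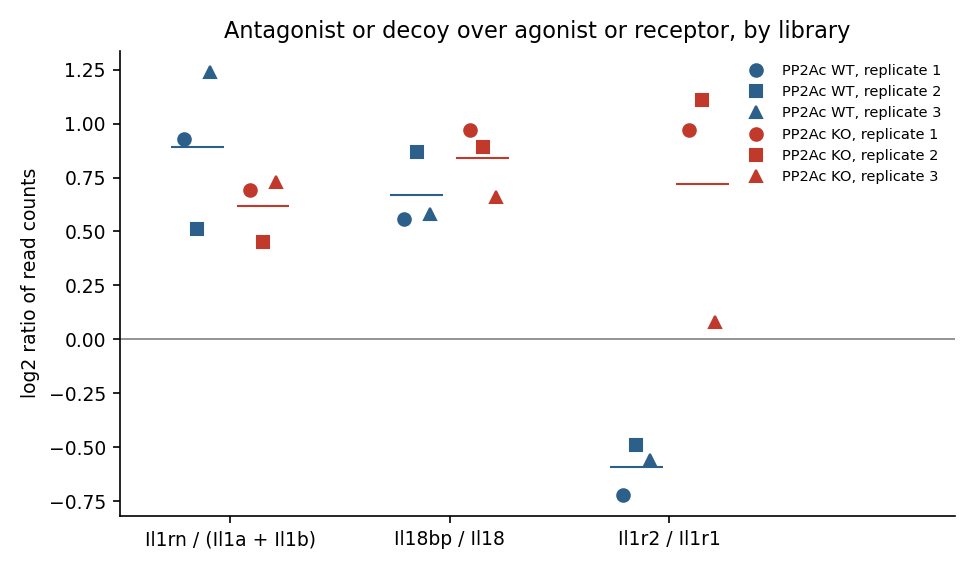
Log2 ratio of read counts in each library for *Il1rn* over *Il1a* plus *Il1b*, *Il18bp* over *Il18* and *Il1r2* over *Il1r1*, with a marker shape for each replicate number and a line at the group mean. WT (blue) and PP2Ac KO (red) points overlap for the first and second ratio, and the third is above 0 in all PP2Ac KO libraries and below 0 in all WT libraries. The ratios are not corrected for exon length, so 0 does not mark equal levels of the genes.

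Levels of different genes were compared as CPM per kilobase of all annotated exons, which understates genes with long alternative exons. In WT BMDM the order was *Il1b* with 14.9 ± 5.16 CPM per kilobase, *Il18* with 11.0 ± 2.71, *Il1rn* with 9.5 ± 2.27, *Il18bp* with 5.93 ± 1.12, *Il1rap* with 2.08 ± 0.418, *Il1r2* with 1.59 ± 0.321, *Il1r1* with 0.716 ± 0.147 and *Il1a* with 0.389 ± 0.0783 (SD, n = 3). The libraries of *Il1b*, *Il18* and *Il1rn* overlapped in turn, as did those of *Il1rap* and *Il1r2*. In PP2Ac KO BMDM *Il1b* stood apart at the top with 42.4 ± 9.08 CPM per kilobase, and *Il1r1* was last with 0.377 ± 0.0350, where its libraries overlapped those of *Il1a* at 0.515 ± 0.145. Replicate 3 was the lowest library of its genotype for 6 of the 8 genes in WT and for 6 in PP2Ac KO, and these were the same genes in both, *Il1b*, *Il1rn*, *Il18bp*, *Il1r2*, *Il1r1* and *Il1rap*.

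By Pearson's correlation of log2 CPM over the 6 libraries, the 3 genes most like *Il1b* were *H2-Q7* (r = 0.9982), *Trpm2* (r = 0.9976) and *Dusp5* (r = 0.9974), and those most like *Il1rn* were *Zfp217* (r = 0.9991), *Usp42* (r = 0.9991) and *Bcl9* (r = 0.9988). These values describe libraries that share genotype and replicate number, and 733 of 13602 genes had an r over 0.95 with *Il1b* and 1432 with *Il1rn*.

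The remaining genes of the family were mostly not expressed. Of the 13 other family genes in the table, 5 were tested, of which 1 rose and 1 fell, shares near the 18.1% and 19.0% of all genes, with a median log2 change of -0.11. Another 6 were at 0 reads in every library, and *Il1f9*, which encodes an IL-36 cytokine, had at most 2. *Il33*, the gene of a nuclear alarmin, had 23 to 67 reads and a log2 fold change of 0.34 (adjusted p = 0.439 from edgeR). *Il18rap*, whose product completes the IL-18 receptor, had 323, 199 and 245 reads in PP2Ac KO and 231, 125 and 80 in WT and rose by a log2 change of 1.04 ± 0.26 (SE, edgeR adjusted p = 0.0131). That call was lost without PP2Ac KO replicate 1 (adjusted p = 0.0547 from edgeR) and without WT replicate 2 (adjusted p = 0.0507 from edgeR). *Il18r1*, the ligand-binding chain, had at most 5 reads in a library. *Il1rl1*, which encodes the IL-33 receptor ST2 and is named after its values were seen, had 106, 57 and 119 reads in PP2Ac KO and 249, 241 and 139 in WT and fell by 0.96 on the log2 scale (SE 0.23, edgeR adjusted p = 0.00926).

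The receptor genes lie in a row on the forward strand of chromosome 1 from *Il1r2* at 40074079 to the end of *Il18rap* at 40551705, in the order *Il1r2*, *Il1r1*, *Il1rl2*, *Il1rl1*, *Il18r1* and *Il18rap*. Along this row *Il1r1* and *Il1rl1* fell and *Il18rap* rose. *Il1r2* was not called in the fit on genotype alone, *Il1rl2* had a log2 fold change of -0.28 (adjusted p = 0.383 from edgeR), and *Il18r1* was too low to test.

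The pathway downstream of the receptor was counted over 20 signaling genes, of which all were tested. At FDR under 0.05, 8 rose and 3 fell (median log2 change 0.13), where 18.1% and 19.0% of all genes were higher and lower. The share that fell was thus near that of all genes. The counts were 11 higher and 5 lower with the replicate block, where 24.4% and 26.4% of all genes were higher and lower. *Nfkbia*, which encodes the NF-κB inhibitor IκBα and is itself an NF-κB target, rose from between 117 and 126 CPM in WT to between 327 and 364 CPM in PP2Ac KO, a log2 change of 1.49 ± 0.07 (SE, edgeR adjusted p = 1.48e-05). *Myd88*, the adaptor of IL-1, IL-18 and Toll-like receptors, rose by a log2 change of 1.03 ± 0.09 (SE, edgeR adjusted p = 7.42e-05). The 3 that fell, named after their values were seen, were *Tollip*, *Peli2* and *Tab1*, with log2 fold changes of -0.37, -0.36 and -0.44. *Tollip* encodes an inhibitor of IRAK1.

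Of 20 genes for the processing and release of IL-1β and IL-18, 17 were tested, 10 rose and 2 fell, where 18.1% and 19.0% of all genes were higher and lower, and the median log2 fold change was 0.28. *Nlrp3*, the sensor of the best known inflammasome, had 183 to 235 CPM in PP2Ac KO and 60.8 to 74.7 CPM in WT, a log2 change of 1.59 ± 0.11 (SE, edgeR adjusted p = 5.40e-05), the largest of this list. *Casp1*, which encodes the protease that cleaves both precursors, rose from 115 ± 20.0 to 223 ± 2.26 CPM (SD, n = 3), which is a log2 change of 0.95 ± 0.11 (SE, edgeR adjusted p = 2.74e-04). *Mefv*, the gene of the sensor pyrin, and *Casp4*, the gene of the caspase that senses lipopolysaccharide, had log2 fold changes of 1.10 and 1.07. The genes that fell, named after their values were seen, were *Txnip* and *P2rx7*, with log2 fold changes of -0.43 and -0.21. *P2rx7* encodes the ATP receptor whose opening triggers NLRP3, and its call was lost without PP2Ac KO replicate 2 (adjusted p = 0.128 from edgeR), PP2Ac KO replicate 3 (adjusted p = 0.0987 from edgeR) or WT replicate 2 (adjusted p = 0.0825 from edgeR). The neutrophil proteases *Elane*, *Prtn3* and *Ctsg*, which can also cleave IL-1 cytokines, had at most 3 reads in any library.

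**Figure D5:**
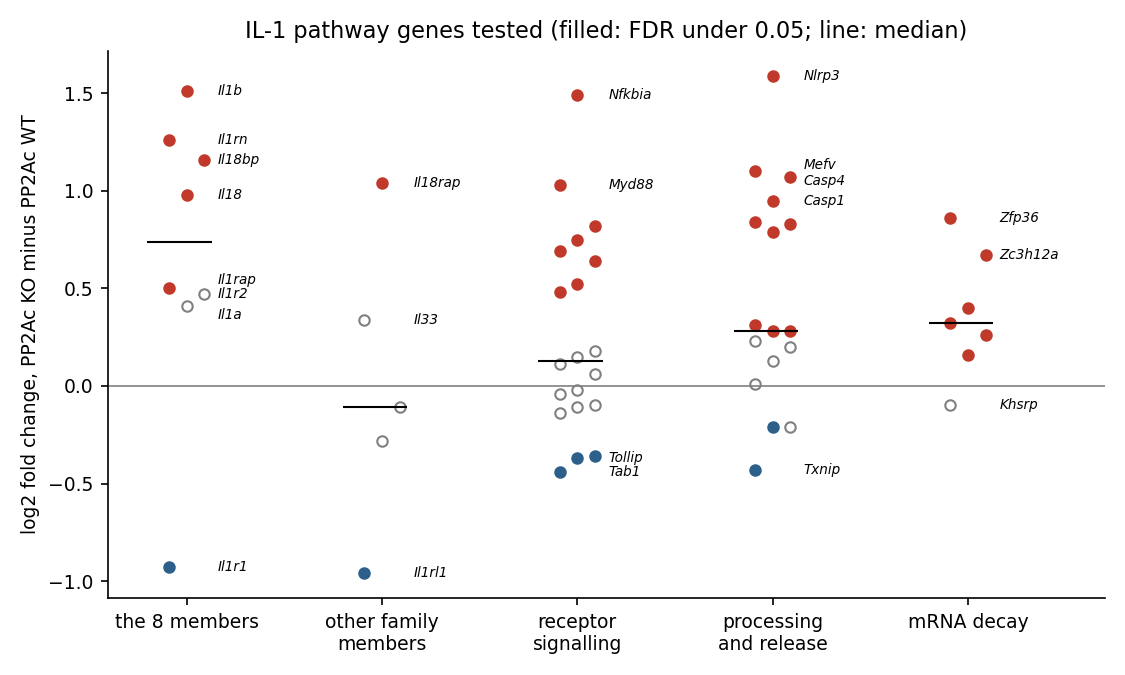
Log2 fold change, PP2Ac KO minus WT, of each tested gene in the 8-member group and in 4 lists of related genes, with filled points for FDR under 0.05 in edgeR, open points for genes not called and a line at each median. *Nlrp3* and *Il1b* have the largest increases, and *Il1rl1* and *Il1r1* the largest decreases, among the genes plotted.

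Of 7 genes for proteins that bind AU-rich or stem-loop elements in cytokine mRNAs, 6 rose and 0 fell, where 18.1% and 19.0% of all genes did, and the median log2 change was 0.32. *Zfp36*, whose product binds ATTTA pentamers, rose from 365 ± 11.6 to 663 ± 21.1 CPM (SD, n = 3), which is a log2 change of 0.86 ± 0.06 (SE, edgeR adjusted p = 5.51e-05). Binding of this product to the stretch shown for *Il1b* was not tested.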

How the data were processed

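Poly(A) RNA of 6 BMDM libraries was made into directional libraries and read from both ends (150 bases). The authors deposited 1 table of raw read counts per gene symbol. The submitters' processing notes list fastp 0.20.0, kallisto 0.46.1, STAR 2.7.1a, HTSeq 0.11.2, edgeR 3.34.0 and limma 3.48.3 with builds mm10 and GRCm38, but not which made the table, and the strand setting is not given in the sources used here.

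Groups came from the sample titles. Counts were filtered with filterByExpr (minimum count 10, minimum total 15), scaled by TMM and tested with edgeR 4.0.16 in R 4.3.3 (quasi-likelihood test, genotype as the only term), and p-values were adjusted over 13680 genes by the Benjamini-Hochberg method. Standard errors are the log2 fold change over the square root of F. CPM use the TMM factors. On simulated counts for 13532 genes of the PP2Ac KO against WT comparison, this test found 98 of 100 genes changed 1 log2 unit and 100 of 100 changed 2 units, with 13 false calls. The simulated libraries had no replicate effect, and the spread of a gene followed its level alone. Far fewer genes were changed than were called in the real data, and genes as low as *Il1a* were left unchanged. These rates therefore need not hold for the real libraries. P-values measure the spread between libraries, which may be technical. Alternatives were RLE and upper-quartile scaling, other filters, DESeq2 1.42.0, limma-voom (limma 3.58.1), a replicate block and each library left out in turn. Deviations of same-numbered libraries from their group means correlated at 0.446, 0.275 and 0.459 for numbers 1, 2 and 3 across genes, so the numbers may pair the libraries. The main fit did not use them, and the fit with the replicate block is given beside it as an alternative. Of the 8 genes, *Il1r2* was called only with the block of these 2 fits. Libraries of a genotype differed by 9.32 to 45.5 times the counting variance, so none was the same library deposited again, which does not show that they came from separate cultures or mice.

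The genes, lists and tests were chosen with earlier results of these data known, and the TATA box and C/EBP motifs after the other motifs (NF-κB, ISRE, GAS TTCNNNGAA and PU.1 GAGGAA, on both strands) had been searched. Those 4 motifs were found in 1 of the 11 windows each and in 4.51%, 3.44%, 8.30% and 28.3% of all windows. The named genes are the 8 members, those of each list called with an absolute log2 fold change over 1 (at most 6), *Il33*, *Myd88*, *Casp1*, *Nlrp3*, *Zfp36*, *Ppp2ca*, and the 3 genes most like *Il1b* and *Il1rn*. Outside this rule, *Il1rl1*, *Tollip*, *Peli2*, *Tab1*, *Txnip*, *P2rx7* and *Clec9a* were named after their values were seen, and *Il1rl2* and *Il18r1* as neighbors in the receptor row. *Il1bos*, *Gm14023*, *Bco2* and *Numa1* were named because they overlap members. *Il1f9* and the neutrophil proteases were named for their low counts, and marker genes from their lists. Of the table's symbols, 98.3% are in GENCODE M21 (GRCm38), which gave coordinates and exons.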

Additional observations from a re-analysis of the deposited data

How the results depend on the processing

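The directions of the 8 genes were kept in all 13 alternatives, with log2 fold changes from 1.25 to 1.68 for *Il1b*, 1.08 to 1.46 for *Il1rn*, 1.04 to 1.31 for *Il18bp*, 0.88 to 1.20 for *Il18*, 0.40 to 0.68 for *Il1rap*, -1.08 to -0.82 for *Il1r1*, 0.28 to 0.78 for *Il1r2* and 0.23 to 0.61 for *Il1a*. *Il1b*, *Il1rn*, *Il18bp*, *Il18* and *Il1r1* were called in each of them, and *Il1a* in none. With the replicate number as a block, 6 of the 8 genes were higher and 1 lower, and of the lists the number of signaling genes that fell was 5 in place of 3. The number of processing genes that fell was 1 in place of 2 with DESeq2 and with RLE scaling, and 1 to 3 with each library left out, the 3 being without PP2Ac KO replicate 1. With each library left out, 4 to 6 of the genes for proteins that bind AU-rich or stem-loop elements rose. The number of other family genes that rose was then 0 to 1. The differences in the 3 ratios kept their sign in all alternatives, and with the replicate block their values were -0.27, 0.17 and 1.31, where 3 pairs allow no exact p under 0.25. The counts of fewer than 60 reads for *Il1a*, and of 81 to 110 for *Il1r1* in PP2Ac KO, limit the precision of these genes.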
